A study of Mus musculus with 2 samples.

Results

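The retinal pigment epithelium (RPE) cells with low RNA content were the droplet-sequenced cells in which fewer than 4000 transcripts were counted although the cells otherwise passed as RPE. The cells were chosen by measured values, and they were 1096 of 5838 cells, with 370 of 2844 in replicate R1 and 726 of 2994 in replicate R2. A cell was taken when at least 500 genes were detected in it, at most 5% of its unique molecular identifiers (UMIs, each meant to mark 1 captured transcript) came from mitochondrial genes, at least 5% came from Ttr, and its UMIs totalled less than 4000. They were compared within each mouse with the cells, 1174 for R1 and 832 for R2, that passed the same filters and held 6000 to 12000 UMIs, called comparison cells here. The rule used total UMIs, gene number, mitochondrial share and Ttr share, so differences in those 4 quantities are described and were not tested.

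Single-cell RNA sequencing was done on 2 male C57BL/6J mice with no treatment or engineered allele named, given as 4 to 5 weeks old in the labels and as postnatal day 36 in the protocol. R1 and R2 are 1 mouse each, with the cells of both eyes pooled before the library was made. The eyecups were kept in trypsin for 30 min at 37 °C and the cells in calcein for 15 min, then sorted as calcein-positive and DAPI-negative, a gate for cells with an intact membrane. Storage before loading differed in length between the replicates, so storage and mouse cannot be told apart.

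The RPE is the pigmented monolayer between photoreceptors and choroid. It regenerates 11-cis retinal for the photoreceptors in the visual cycle, engulfs the tips of their outer segments, moves ions, water and lactate, and secretes transport proteins such as transthyretin, the product of Ttr. Many mouse RPE cells hold more than 1 nucleus or a polyploid nucleus, and RNA content is known to vary with cell size and ploidy, neither of which is recorded here.

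Low-RNA cells made up 13.6% of the 2723 filtered cells of R1 (exact Clopper-Pearson 95% interval 12.3% to 14.9%) and 24.6% of the 2947 of R2 (23.1% to 26.2%). Intervals on counts cover counting error only. They held 4.31% of all UMIs of R1 and 8.05% of those of R2. The middle cell had 2997 UMIs and 1023.5 genes in R1 and 3264 UMIs and 947 genes in R2, against 8928 UMIs and 2190 genes in the comparison cells of R1 and 8783 UMIs and 1931 genes in those of R2. Of all cells under 4000 UMIs, 477 in R1 and 758 in R2, the mitochondrial limit removed 52 and 21, the gene minimum removed 4 and 0, and the Ttr minimum removed 51 and 11. The 2 libraries shared 12 barcodes, and 4 of those were low-RNA in 1 of the mice and 0 in both.

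The UMI limit did not fall in a gap between classes of cells. In R1, the 40 cells of 3800 to under 4000 UMIs had a median of 12.2% Ttr, 2.27% mitochondrial UMIs and 1237.5 genes, and the 41 cells of 4000 to under 4200 UMIs had 11.8%, 2.51% and 1315 genes. In R2, the 86 cells just under the limit had 13.1% Ttr, 1.34% mitochondrial UMIs and 1095.5 genes, and the 70 just over it had 13.1%, 1.32% and 1136.5 genes.

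The cells carried the RPE label in both mice. Ttr, which was part of the rule, took a median of 11.4% of UMIs in low-RNA cells and 11.3% in comparison cells of R1, and 13.4% and 12.9% in R2. For all other genes each cell was thinned at random to 2000 UMIs, so that cells of different depth could be set beside each other, and the thinned counts were summed per mouse and group into 4 summed libraries. A level below is the number of UMIs of a gene per 10000 UMIs of such a library. Rpe65, the isomerohydrolase of the visual cycle, was at 46.9 in low-RNA and 49.2 in comparison cells of R1, and at 53.9 and 49.6 in R2. Its log2 fold change, low-RNA over comparison, was 0.06 (SE 0.13, adjusted p = 0.999, edgeR quasi-likelihood test). Rgr, an opsin of the RPE that converts all-trans retinal, was at 151 and 192 in R1 and at 254 and 214 in R2. It was lower in the low-RNA cells of one mouse and higher in those of the other, and its log2 fold change over the pair of mice was -0.01 (SE 0.13, adjusted p = 0.999, edgeR quasi-likelihood test).

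The other steps of the visual cycle were at similar levels. Rlbp1, the 11-cis retinal binding protein, was at 37.3 in low-RNA and 38.9 in comparison cells of R1, and at 41.6 and 41.0 in R2. Lrat, which esterifies retinol, was at 11.9 and 13.7 in R1 and at 14.2 and 14.9 in R2. Rdh5, a retinol dehydrogenase, was at 73.9 and 81.0 in R1 and at 86.0 and 88.5 in R2. Of these 3 genes Lrat had the lowest fold change, -0.10 over both mice, with -0.19 in R1 and -0.01 in R2. Over the 11 visual cycle and retinoid genes, all of which passed the filter on low counts, 4 had a log2 fold change above 0 and none passed the test.

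Markers of other cell types were scarce in the low-RNA cells. The Ttr minimum of the rule had already selected for RPE, so this scarcity is no test of what the cells were. A cell was counted as carrying another type when 2 or more markers of that type were detected in it. The types were microglia or macrophages, fibroblasts, endothelium, pericytes or smooth muscle, and red blood cells. This was so in 4 of 370 low-RNA cells of R1 and 15 of 726 of R2, and in 51 of 1174 and 19 of 832 comparison cells. All UMIs of a cell were used, and comparison cells held more of them, so the counts of the groups are not comparable. The fibroblast list of 6 genes summed to 0.0135 UMIs per 10000 in low-RNA and 0.0170 in comparison cells of R1, and to 0.730 and 0.0300 in R2. Its most abundant gene, Dcn, had 84 UMIs from 34 low-RNA cells of R2, 13 of them from 1 cell, and 0 in low-RNA cells of R1, and Lum and Pdgfra were at 0 in all 4 libraries. All 8 fibroblast-marked low-RNA cells were in R2, and no comparison cell had 2 fibroblast markers.

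The other non-RPE lists are given by their sums in low-RNA and comparison cells, in that order. The 5 pericyte or smooth muscle genes summed to 2.19 and 2.22 in R1 and to 2.62 and 1.94 in R2, led by Acta2. Rgs5 of that list was at 0.138 in the low-RNA cells of R2 and at 0 in the other 3 libraries, a pattern like that of Dcn, while Myh11 and Tagln were at 0 in all 4. The 6 choroidal melanocyte genes summed to 3.97 and 3.74 in R1 and to 2.25 and 2.73 in R2, led by Mlana, with Pax3 and Ednrb at 0. Sox10, a neural crest factor in that list, was at 0.892 and 0.613 in R1 and at 0.751 and 0.553 in R2 (log2 fold change 0.52, SE 0.23, adjusted p = 0.999, edgeR). Leaving out the marker-carrying cells kept all 3 genes called below. The marker rule held no melanocyte genes, so the part of choroidal melanocytes in the low-RNA profiles was not tested. For the types in the rule nothing further was tested.

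The 10 rod genes summed to 3.45 and 4.36 in R1 and to 5.15 and 4.79 in R2, nearly all of it Rom1, with Nrl at 0 throughout. The 5 cone genes summed to 0.0946 and 0.209 in R1 and to 0.207 and 0.198 in R2, led by Gnat2. Arr3, Opn1sw and Pde6h of that list were at 0 in all 4 libraries. The 10 microglia or macrophage genes summed to 1.84 and 1.60 in R1 and to 0.992 and 1.29 in R2, led by Csf1r, with C1qb at 0 in the low-RNA cells of both mice. The 6 endothelial genes summed to 0.108 and 0.196 in R1 and to 0.131 and 0.132 in R2. The 7 Muller glia genes, nearly all of it Apoe, which RPE also expresses, summed to 172 and 193 in R1 and to 177 and 172 in R2, with Aqp4 and Slc1a3 at 0. The 8 ciliary epithelium genes summed to 0.811 and 1.41 in R1 and to 0.916 and 0.931 in R2, led by Aldoc. The 5 red blood cell genes summed to 0.0676 and 0.0724 in R1 and to 0 and 0.00601 in R2. An artificial-doublet score, built by adding pairs of cells, was set to mark the 4% of cells with the highest score. These were 111 cells of R1 and 119 of R2, of which 0 were low-RNA cells. The smallest cell had 2145 UMIs in R1 and 2745 in R2, so any such pair summed to more than the UMI limit of the low-RNA rule. The 0 is therefore no test of doublets among low-RNA cells. Free RNA from broken cells was not removed here, and its part in the low-RNA profiles was not tested.

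Fewer genes were detected in low-RNA cells at the same number of UMIs. After thinning to 2000 UMIs, the median was 791 genes in low-RNA and 866 in comparison cells of R1, and 722 and 820 in R2. Cells of 4000 to under 6000 UMIs lay between them, at 836.5 and 770 genes, and cells over 12000 UMIs lay highest, at 894 and 856. The low-RNA median was 91.3% of the comparison median in R1 and 88.0% in R2, or 89.7% ± 2.33 (SD, n = 2 mice). With 2 mice an exact sign-flip test cannot give a two-sided p below 0.5, so the difference was not tested.

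The share of a cell's UMIs that thinning keeps moved with this difference. A deep cell loses more of its UMIs than a low-RNA cell when both are brought to 2000, and UMIs of a gene were clumped in cells before thinning. Among genes averaging 0.02 to 0.1 UMIs per cell before thinning, 39.7% of UMIs in low-RNA cells of R1 had another UMI of the same gene in the same cell, against 5.74% under a Poisson distribution, and 40.5% against 6.20% in comparison cells. In R2 these shares were 55.3% and 54.7%, against 5.75% and 6.19%. The abundance window was applied to each group of cells, so the shares come from different genes, 4562 in low-RNA and 3465 in comparison cells of R1 and 4355 and 3576 in R2. At 1000 UMIs the low-RNA medians were 483.5 and 456 genes and the comparison medians 514 and 493. At 300 UMIs they were 184 and 179 against 190 and 185, a setting added after the data were seen. Thinning itself narrows such gaps at small depths, and the part of repeat UMIs in the difference was not tested.

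**Figure D1:**
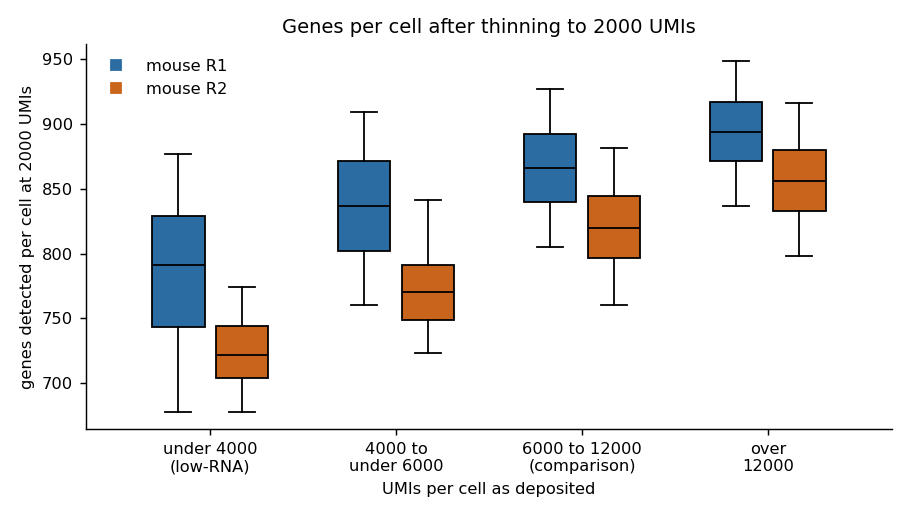
Genes detected per cell after thinning to 2000 UMIs (y axis, not from 0) by UMIs per cell as deposited (x axis) in R1 and R2. Boxes span the quartiles with the median as a line, and whiskers run from the 5th to the 95th percentile of cells. The medians rise from 791 and 722 in low-RNA cells to 894 and 856 in cells over 12000 UMIs.

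The gene by gene comparison found 3 genes of 8151 tested (0.0368%) below the adjusted p threshold of 0.05 when edgeR was fitted with mouse as a block. All 3 were higher in low-RNA cells, and none was lower. They were Bhlhe41, a transcriptional repressor linked to the circadian clock, Actb, which encodes cytoplasmic beta-actin, and Zfp691, a zinc finger protein. At an unadjusted p under 0.05, 142 genes were higher and 128 lower. DESeq2 on the same counts called 0 genes in either direction, with 9 higher and 3 lower at an unadjusted p under 0.05.

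Bhlhe41 (ENSMUSG00000030256, GRCm38 chromosome 6, 145858243 to 145865558, minus strand) was at 0.662 in low-RNA and 0.230 in comparison cells of R1, and at 2.05 and 0.962 in R2. Its log2 fold change was 1.29 (SE 0.22, adjusted p = 3.57e-05, edgeR), with 1.53 in R1 and 1.14 in R2. The UMIs behind these levels were few, 49 from 37 low-RNA cells of R1 and 297 from 224 of R2, with at most 5 from 1 cell. The low-RNA level exceeded the comparison level in each mouse, but the low-RNA level of R1 lay below the comparison level of R2, so that the groups overlapped when the mice were not paired.

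Actb (ENSMUSG00000029580, GRCm38 chromosome 5, 142903115 to 142906754, minus strand) was at 4.77 in low-RNA and 2.90 in comparison cells of R1, and at 11.2 and 6.66 in R2. Its log2 fold change was 0.77 (SE 0.15, adjusted p = 6.76e-04, edgeR), with 0.73 in R1 and 0.80 in R2. The low-RNA level was the higher one in each mouse, and the level of R2 was more than 2-fold that of R1 in both groups. Zfp691 (ENSMUSG00000045268, GRCm38 chromosome 4, 119169513 to 119174195, minus strand) was at 0.541 and 0.268 in R1 and at 1.22 and 0.571 in R2. Its log2 fold change was 1.10 (SE 0.24, adjusted p = 0.0117, edgeR), with 1.02 in R1 and 1.15 in R2, from 40 UMIs in low-RNA cells of R1 and from 177 for R2.

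The excess was uneven over the low-RNA cells of R1, which are split by mitochondrial share further on. Actb was at 3.28 in the 116 cells under 0.5% (exact Poisson 95% interval 2.58 to 4.10), 9.14 in the 35 of 0.5 to under 2% and 4.86 in the 219 of 2% or more. Bhlhe41 was at 0.259, 0.857 and 0.845 in these ranges, and Zfp691 at 0.302, 1.29 and 0.548. In the lowest range, where Bhlhe41 had 6 and Zfp691 7 UMIs, the comparison levels of all 3 genes lay within the counting intervals.

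The 3 calls depended on the fit and on the cells taken. All were lost with DESeq2, without the mouse block, without thinning, with a Ttr minimum of 8%, and when cells under 0.5% mitochondrial UMIs were left out of both groups. Bhlhe41 was the 1 gene still called without TMM, Actb the 1 still called with Ttr and mitochondrial UMIs removed or with comparison cells of 6000 to 9000 UMIs, and Zfp691 was lost at 1000 UMIs. Of the 16 alternatives, Actb passed in 10, Bhlhe41 in 9 and Zfp691 in 7. Under all 16 alternatives their log2 fold changes stayed above 0, from 0.87 to 1.42 for Bhlhe41, 0.64 to 0.84 for Actb and 0.71 to 1.26 for Zfp691.

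The levels of the 3 genes fell stepwise over the UMI classes of R2 and converged between the mice in the deepest cells. Actb in R2 went from 11.2 in low-RNA cells to 9.77 at 4000 to under 6000 UMIs, 6.66 in comparison cells and 2.84 over 12000 UMIs. In R1 it went from 4.77 to 4.55, 2.90 and 2.93, so that the mice, more than 2-fold apart in low-RNA cells, were level in the deepest class. Bhlhe41 went from 2.05 to 1.71, 0.962 and 0.234 in R2, and from 0.662 to 0.493, 0.230 and 0.225 in R1. Counted per cell as deposited, Actb gave a mean of 3.71 UMIs in low-RNA cells, 5.46 in comparison cells and 5.38 in cells over 12000 UMIs of R2. In that mouse the number of Actb UMIs per cell thus changed far less than total UMIs did. In R1 the means were 1.48, 2.69 and 4.82, and rose with total UMIs.

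**Figure D2:**
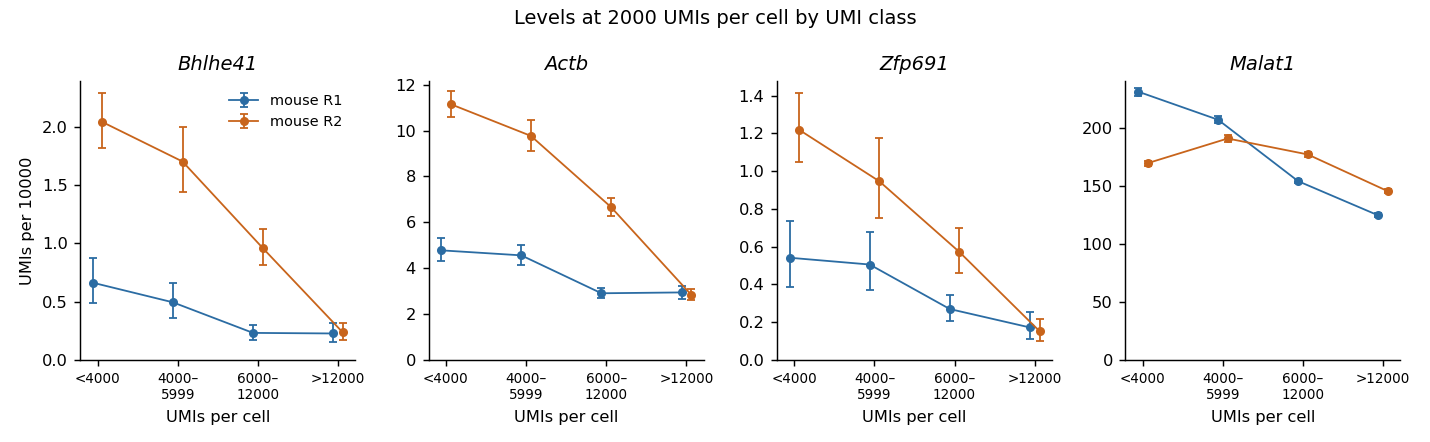
Levels of Bhlhe41, Actb, Zfp691 and Malat1 (UMIs per 10000 after thinning to 2000 UMIs per cell, y axis from 0) over classes of UMIs per cell (x axis) in R1 and R2. Bars are exact Poisson 95% intervals for counting error only. Actb of R2 falls from 11.2 to 2.84, where R1 is at 2.93.

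By the naming rule, genes that did not pass but had an unadjusted p under 0.05 and the same direction in both mice filled up the list. On the higher side these were Rbm4b, an RNA-binding protein, Alkbh5, an RNA demethylase, the noncoding 1700018L02Rik, Tnfaip1, and Cct2, a chaperonin subunit, with log2 fold changes from 0.65 for Cct2 to 0.89 for Rbm4b. Rbm4b was at 0.770 in low-RNA and 0.409 in comparison cells of R1, and at 0.592 and 0.343 in R2 (adjusted p = 0.318, edgeR). Single cells weighed in: 15 of the 57 Rbm4b UMIs and 19 of the 71 Tnfaip1 UMIs in low-RNA cells of R1 came from 1 cell each. On the lower side they were Krt23, an epithelial keratin, Matr3, Hes6, Slc35b1, Prrc2b, Ddah1, Ptges2 and Cdc14a, with log2 fold changes from -0.77 for Krt23 to -0.48 for Cdc14a. Krt23 was at 0.311 and 0.609 in R1 and at 0.503 and 0.817 in R2 (adjusted p = 0.836, edgeR). None of these 13 genes can be called different by this test.

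Gene groups with RPE functions had medians near that of all genes, whose median log2 fold change was 6.87e-05 with 4077 of 8151 genes above 0. Per group, the number with a log2 fold change above 0 was 6 of 14 for melanosome genes (median -0.10), 8 of 14 for ion and water transport (0.01), 12 of 18 for phagocytosis and lysosome (0.12), 7 of 20 for secreted and matrix proteins (-0.05), 11 of 19 for junction and cytoskeleton (0.03) and 8 of 10 for RPE transcription factors (0.09). Actb, in the junction and cytoskeleton list, was the only member of any list that passed the test. The pigment enzyme Dct was at 11.1 in low-RNA and 9.88 in comparison cells of R1, and at 6.23 and 6.80 in R2. Basigin (Bsg), the partner of lactate transporters, was at 76.7 and 93.2 in R1 and at 89.3 and 84.8 in R2. Ptgds, which makes prostaglandin D2, was at 557 and 597 in R1 and at 585 and 577 in R2. For Bsg as for Rgr, the sign of the difference was opposite in the 2 mice. This held for whole lists: the medians of visual cycle genes (-0.12 in R1, 0.10 in R2), ion and water transport (-0.08 and 0.10) and phagocytosis and lysosome (-0.06 and 0.17) lay below 0 in R1 and above 0 in R2, and that of RPE transcription factors (0.18 and -0.15) lay the other way. These differences between the mice were not tested.

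Groups for general cell functions moved as little. The log2 fold change was above 0 for 38 of 59 ribosomal protein genes (median 0.04), 51 of 81 nuclear-encoded genes of oxidative phosphorylation (0.06), 8 of 16 translation factors (-0.01), 4 of 14 glycolytic genes (-0.05), 6 of 14 genes of fatty acid oxidation and ketogenesis (-0.04), 12 of 19 chaperones (0.04), 3 of 8 genes of p53 and cell death (-0.09), 13 of 24 antioxidant and metal genes (0.01) and 11 of 19 of transcription and splicing (0.02). Of the ribosomal list, 59 of 87 genes passed the filter on low counts, and of the oxidative phosphorylation list 81 of 87. Cox8a, a subunit of cytochrome oxidase, was at 29.9 in low-RNA and 28.9 in comparison cells of R1 and at 27.1 and 28.7 in R2. The 8 proliferation genes summed to 0.595 in low-RNA and 0.703 in comparison cells of R1 and to 0.737 and 0.667 in R2. Cdk1, a cell cycle kinase, was at 0.176 and 0.294 in R1 and at 0.372 and 0.300 in R2, while Mki67 and Top2a were at 0 in all 4 libraries, which allows up to 3 UMIs in a library by the floor used here.

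A list of immediate-early and dissociation genes, which respond within minutes to handling, had the highest median of those with values alike in both mice. All 12 members that passed the filter, of 22, had a log2 fold change above 0 in the fit over the pair of mice, 8 of them above 0 in each mouse, and their median was 0.41, with R1 at 0.39 and R2 at 0.36. None passed the test. Fos, a subunit of the AP-1 factor named after its values were seen, was at 0.203 in low-RNA and 0.0426 in comparison cells of R1 and at 0.406 and 0.288 in R2 (log2 fold change 1.05, SE 0.37, adjusted p = 0.999, edgeR). Jun, its partner, was at 0.743 and 0.375 in R1 and at 1.25 and 1.07 in R2. The list's counts were small, summing to 5.09 and 3.39 UMIs per 10000 in R1 and 7.33 and 6.88 in R2, and its median was 0.11 with a second random thinning.

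**Figure D3:**
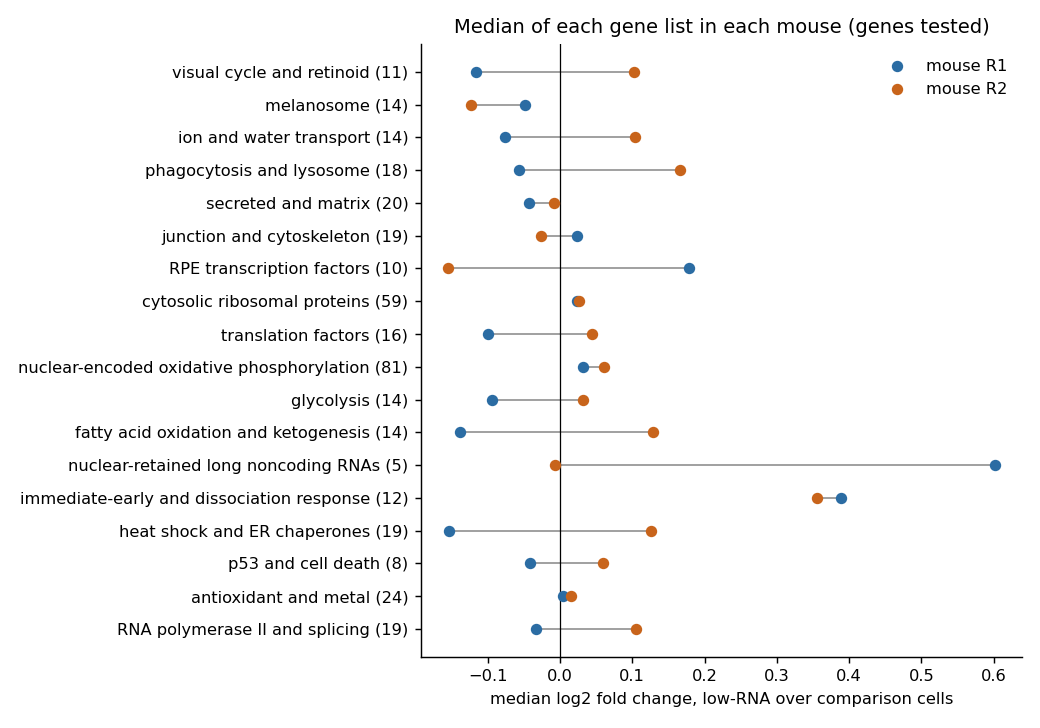
Median log2 fold change, low-RNA over comparison cells (x axis), of each gene list (y axis, number of genes tested in brackets) in R1 and R2. Most lists lie within 0.2 of 0, often on opposite sides in the 2 mice, and nuclear-retained RNAs lie at 0.60 in R1 and -0.01 in R2.

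The mitochondrial share split the low-RNA cells of R1 into a low and a high band, which was not seen in R2. In R1, 116 of 370 low-RNA cells (31.4%, exact 95% interval 26.7% to 36.3%) had under 0.5% mitochondrial UMIs, 35 had 0.5 to under 2%, and 219 (59.2%, 54.0% to 64.2%) had 2% or more. Whether the barcodes under 0.5% were whole cells was not tested, and they are called cells here because they passed the filters. Only 7 of the 35 lay between 0.5% and 1%, so the lowest band was set apart. In R2 these numbers were 12, 607 and 107 of 726, and the share under 0.5% was 1.65% (0.857% to 2.87%). Among comparison cells the share under 0.5% was 1.36% in R1 (16 of 1174) and 0.361% in R2 (3 of 832). The cells could not exceed 5% by the rule, which cut the upper band of R1: 22 of its low-RNA cells lay between 4.5% and 5% and 20 excluded cells between 5% and 5.5%.

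Both bands of R1 held far smaller shares of the deeper cells, though not in steady steps. The share of cells under 0.5% was 45.2% at 2000 to under 2500 UMIs, 23.4% at 3500 to under 4000, 6.82% at 5000 to under 6000, 0.352% at 9000 to 12000 and 1.09% over 12000. At 2% or more were 42 of the 84 cells of 2000 to under 2500 UMIs. That share was 64.7% at 2500 to under 3000 UMIs, 59.7% at 4000 to under 5000 and 6.69% at 9000 to 12000. In R2 no UMI class had more than 2.60% of cells under 0.5%, and its median mitochondrial share lay between 1.30% and 1.52% in every class up to 12000 UMIs.

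**Figure D4:**
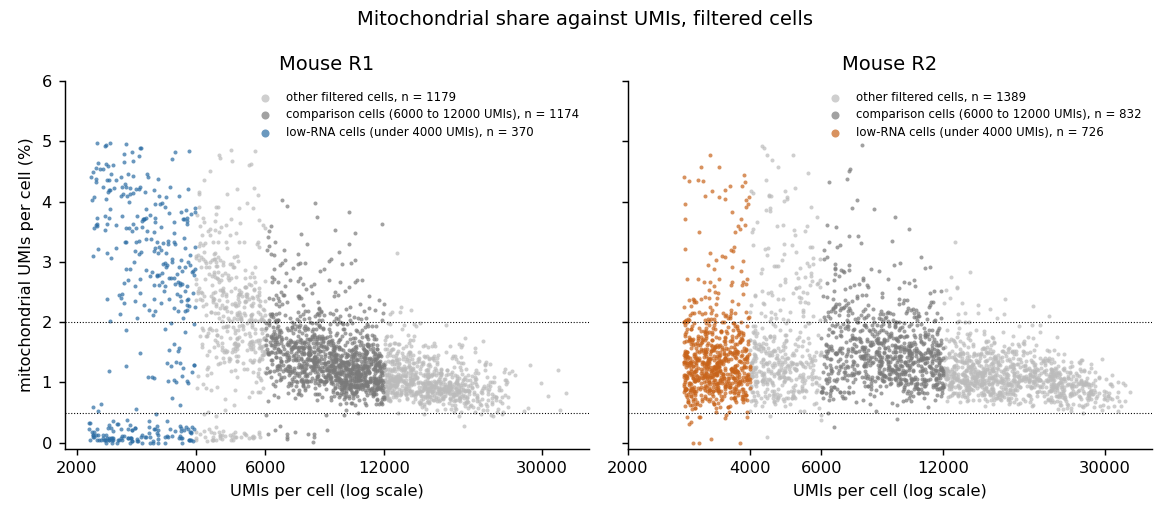
Share of mitochondrial UMIs (y axis, %) against UMIs per cell (x axis, log scale) for each filtered cell of R1 and R2, with low-RNA cells coloured, comparison cells dark grey and dotted lines at 0.5% and 2%. In R1 low-RNA cells lie in a band near 0 (116 cells) and a band over 2% (219 cells), whereas 607 of 726 in R2 lie between the lines.

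The abundant nuclear RNA Malat1 (ENSMUSG00000092341, GRCm38 chromosome 19, 5795690 to 5802672, minus strand), a long noncoding RNA that stays in nuclear speckles, moved with the mitochondrial share. In R1 it was at 30.5 UMIs per 10000 in the low-RNA cells under 0.5% mitochondrial UMIs (exact Poisson 95% interval 28.3 to 32.9), at 184 in those of 0.5 to under 2%, at 346 in those of 2% or more (341 to 352), and at 154 in comparison cells. Single cells of the lowest band had a median of 6.92 and quartiles of 2.59 and 30.0, while those of the highest had quartiles of 228 and 443, so the ranges between quartiles did not overlap. The 16 comparison cells of R1 under 0.5% likewise had a median of 6.78. In R2 Malat1 was at 120 in the 12 cells under 0.5%, 235 in the 107 cells of 2% or more and 177 in comparison cells. Across the 370 low-RNA cells of R1 the Spearman correlation of the mitochondrial share with Malat1 at 2000 UMIs was 0.708 (Pearson 0.691), and across the 726 of R2 it was 0.097 (Pearson 0.425). Across comparison cells the Spearman correlation was 0.293 in R1 and 0.374 in R2, in R2 above that of its low-RNA cells. Cells of a mouse share a library and each cell's shares sum to 1, so the values are descriptions.

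The bands of R1, which were chosen by mitochondrial share, are described here by mean UMIs per cell before thinning, with no test. Cells of the high band held 104 Malat1 UMIs and 104 mitochondrial UMIs, which is 77.2% and 83.3% of the comparison cells' 134 and 125. All genes other than Ttr, Malat1 and the mitochondrial ones gave 2506 UMIs in these cells, 32.9% of the comparison mean of 7629. The 141 comparison cells of R1 that were themselves at 2% or more held 148 Malat1, 202 mitochondrial and 6751 other UMIs per cell, so that against them the mitochondrial count of the high band was far lower. The low band held 8.79 Malat1 and 3.97 mitochondrial UMIs per cell, 6.54% and 3.19% of the comparison means, and 2511 UMIs of the other genes, also 32.9%. Rgr was at 33.5 UMIs per cell in the high band and 66.7 in the low band, or 19.4% and 38.5% of the comparison mean. Low-RNA cells of R2 as a whole held 56.1 Malat1 UMIs per cell against 156 in comparison cells, and 35.7% of the mitochondrial, 38.2% of the Ttr, 44.2% of the Rgr, 67.9% of the Actb and 37.3% of the other UMIs. The 107 of them at 2% or more held 51.2% of the Malat1, 70.7% of the mitochondrial, 34.1% of the Rgr and 36.9% of the other UMIs, as means. For Malat1 a minority of cells weighed on that mean: the median was 56 UMIs in these 107 cells, 51 in the 607 cells of 0.5 to under 2% and 145 in comparison cells, against 97 in the high band and 130 in the comparison cells of R1. The fibroblast list summed to 1.64 UMIs per 10000 in these 107 cells, against 0.0300 in the comparison cells of R2 and 0.0228 in the high band of R1, and its part in their values was not tested.

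**Figure D5:**
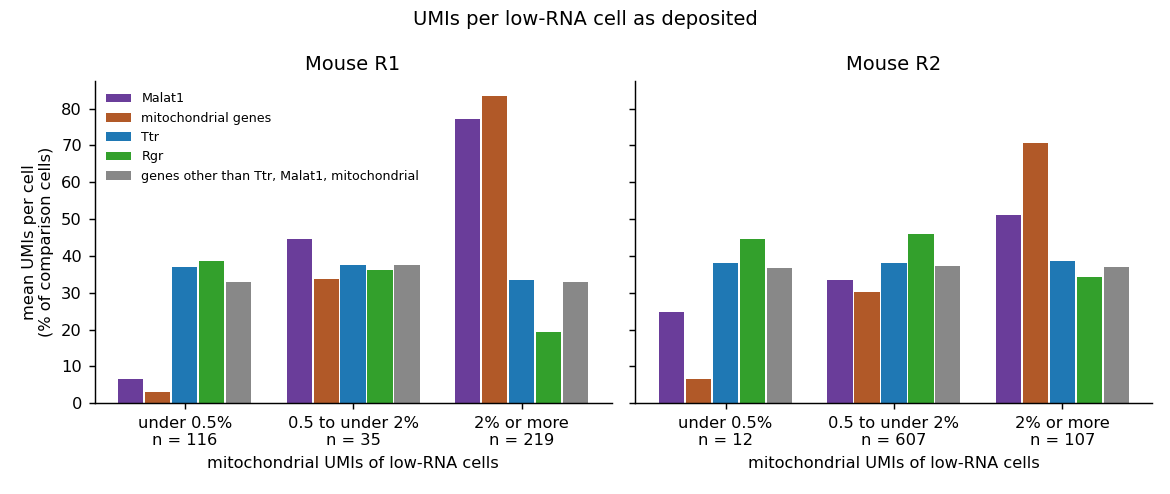
Mean UMIs per low-RNA cell before thinning, as % of the mean of the comparison cells of the same mouse (y axis, from 0), by mitochondrial share (x axis) for Malat1, mitochondrial genes, Ttr, Rgr and the remaining genes. In R1, Malat1 and mitochondrial genes go from 6.54% and 3.19% in the lowest range to 77.2% and 83.3% in the highest, while the remaining genes are at 32.9%, 37.5% and 32.9% over the 3 ranges.

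Other genes separated the bands of R1 as well. Of 1250 genes averaging at least 1 UMI per 10000 over the low and the high band, with Ttr and mitochondrial genes left out, 89 were more than 2-fold lower in the low band and 40 more than 2-fold higher, on the log2(level + 0.5) scale. With 1 mouse there was no test, and the genes below were picked by this ratio or after their values were seen. After Malat1, the genes lowest in the low band were Serpine3 (0.0862 against 4.45), the heat shock gene Hspa1a (0.172 against 3.29), the transcription factor Myrf (0.690 against 5.46), Nedd4, a ubiquitin ligase (0.776 against 4.59), and Rsrp1 (1.59 against 7.85). Hspa5, the chaperone of the endoplasmic reticulum, was among the genes highest in it (8.23 against 2.33), as were Cpe (10.0 against 3.77), Cnbp (8.53 against 2.81) and Paip2 (3.88 against 0.822). The UMIs of Serpine3 were clumped in cells. At 2000 UMIs its variance was 21.2 times its mean over all low-RNA cells of R1 and 15.5 times over comparison cells. Its band levels thus need not describe most cells of a band. Gene spans in the annotation differed between the sets: the median was 28.9 kb for the 89 genes, 13.8 kb for the 40 and 12.7 kb for all 1250. The low band was 27 genes away from the comparison cells by more than 2-fold and the high band 9, of 1265 genes of at least 1 UMI per 10000 over the 4 libraries, while all low-RNA cells of R1 differed by 1 such gene and those of R2 by 0.

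Some gene lists split along the same line in R1, and others did not. The median log2 ratio of the low to the high band was 0.20 over all 1250 genes. It was 0.73 for 7 glycolytic genes, 0.54 for 6 genes of fatty acid oxidation and ketogenesis and 0.40 for 11 translation factors. At the other end it was -0.89 for 3 RPE transcription factors, -0.69 for 8 melanosome genes and -0.49 for 19 secreted and matrix genes. Lists near the value of all genes included 40 ribosomal protein genes (0.19), 70 nuclear-encoded genes of oxidative phosphorylation (0.21) and 12 phagocytosis and lysosome genes (0.23). The 19 antioxidant and metal genes and the 10 visual cycle genes were each at 0.29. The secreted and matrix list went the other way when summed, with 1459 UMIs per 10000 in the low band and 1164 in the high band, led by Ptgds. Summed over its list, the visual cycle came to 551 UMIs per 10000 in the low band, 373 in the high band and 502 in comparison cells. The immediate-early list came to 1.29 in the low band and 7.08 in the high band. Genes per cell at 2000 UMIs were 729.5 in the low band and 813 in the high band, and 793 and 879 in the comparison cells of those mitochondrial ranges.

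Mean profiles hid this difference between bands. Over the 1265 genes, Pearson's r of log2(level + 0.5) between low-RNA and comparison cells was 0.983 in R1 and 0.992 in R2, while between the mice it was 0.961 for low-RNA cells and 0.987 for comparison cells. Between the low and the high band of R1 it was 0.852. These are correlations across genes, which are not independent replicates. Nuclear-retained RNAs as a list had a median log2 fold change of 0.60 in R1 and -0.01 in R2 (5 genes tested, 0 passing), with Malat1 at 232 in low-RNA and 154 in comparison cells of R1 and at 170 and 177 in R2, and Gm42418, which overlaps ribosomal RNA repeats, at 8.53 and 3.74 and at 3.16 and 4.06.

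The spread between cells differed with depth over the genes taken as a set, but in R2 not every gene followed the set. For 81 genes of R1 averaging at least 2 UMIs at 2000 UMIs per cell, the median ratio of variance to mean was 1.98 in low-RNA, 1.36 in comparison and 1.19 in cells over 12000 UMIs, and for 80 genes of R2 it was 1.69, 1.35 and 1.22. A ratio of 1 is what random sampling gives, and the ratio also rises with the share of UMIs kept in thinning, so the order was not tested. Malat1 had the highest ratio among the low-RNA cells of both mice, 35.9 in R1, followed by Trf and Rgr. In the comparison cells of R1 its ratio was 5.61 and Trf ranked above it. In R2 it was 9.56 in low-RNA and 6.88 in comparison cells, and it ranked first in both. Other genes differed in direction between the mice. In R1 Rgr was at 9.93 in low-RNA and 3.68 in comparison cells, Ptgds at 8.57 and 3.48 and Mt1 at 8.18 and 4.44. In R2 they went the other way, with Rgr at 3.44 in low-RNA and 3.68 in comparison cells, Ptgds at 2.80 and 2.85 and Mt1 at 3.10 and 4.18. Among the 20 nearest neighbours of a low-RNA cell in expression space at equal depth, 22.9% were low-RNA cells in R1, where they made up 13.6% of cells, and 35.0% in R2, where they made up 24.6%. For cells of the low mitochondrial band of R1, 25.7% of neighbours were of that same band, against 4.11% for comparison cells, with mitochondrial genes and Ttr left out of the distances.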

How the data were processed

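The authors deposited raw UMI counts per gene and cell barcode for each mouse. Per the labels and methods these were made with bcl2fastq 2.20.0.422 and Cell Ranger 1.2.0 on GRCm38, with nothing removed after cell calling. Library totals were 26034378 UMIs in R1 and 29732969 in R2.

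Cells were filtered and thinned without replacement to 2000 UMIs (numpy 2.4.6), then summed per mouse and group. The 4 summed libraries were tested in edgeR 4.0.16 (filterByExpr, TMM, quasi-likelihood test, Benjamini-Hochberg adjustment over 8151 genes). Ttr and mitochondrial genes were not tested because the rule used them. Mouse entered as a block because both groups of cells came from the same animal; deviations of libraries of a mouse correlated at 0.177. The p-values rest on 2 mice. DESeq2 1.42.0 was an alternative. In counts simulated for this comparison with 8121 genes tested, edgeR recovered 21.8% of 193 genes changed 2-fold, and with 8225 genes tested 91.6% of 191 genes changed 4-fold.

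Named genes were the rule markers, up to 12 passing genes per direction at a mean of at least 0.5 UMIs per 10000, filled up to 8 with unadjusted p under 0.05, and the most abundant and the passing members of each list. The members, lists and markers were chosen with earlier results of these data known. The rank of genes in the mitochondrial bands and the limits of 0.5% and 2% were set after the data were seen. Doublets were scored but not removed, and free RNA was not removed. Gene lists were described and not tested. Alternatives covered normalization, filters, thinning, cell limits and marker-positive cells.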

Additional observations from a re-analysis of the deposited data

How the results depend on the processing

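The number of genes higher in low-RNA cells, 3 as reported, was 0 with DESeq2, 0 without thinning, 0 with Ttr of at least 8%, 1 without TMM, 1 with Ttr and mitochondrial UMIs removed, 1 with comparison cells of 6000 to 9000 UMIs, 5 with a second seed and 7 without a filter on low counts. Of those 7 genes, 4 moved alike in R1 and R2. The 7 included Gsn and the fibroblast marker Dcn, with 64 of the 74 Gsn UMIs in low-RNA cells of R2 from 1 cell. It was 0 without cells under 0.5% mitochondrial UMIs, an alternative chosen after seeing the data. Without the replicate block it was 0. It was 3 or 4 under the remaining 6 alternatives, of which thinning to 1000 UMIs called Spry2 in place of Zfp691, and the number of lower genes was 0 in all 16. No test was possible without replicate 1 or replicate 2, which leaves 1 library a group and no residual degrees of freedom, so only fold changes and list medians were recomputed. The cause of these differences was not tested.

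List medians moved by more than the spread between mice (SD 0.153) for fatty acid oxidation, 0.13 at 1000 UMIs, and for the immediate-early list, 0.11 with a second seed, 0.21 at 1000 UMIs and 0.20 with comparison cells of 6000 to 9000 UMIs. Leaving out either replicate gave -0.12 to 0.10 for visual cycle, -0.0564 to 0.17 for phagocytosis and lysosome, -0.15 to 0.18 for RPE transcription factors, -0.14 to 0.13 for fatty acid oxidation, -0.00696 to 0.60 for nuclear-retained RNAs, -0.15 to 0.13 for chaperones and -0.0421 to 0.0594 for p53 and cell death. Against the genes per cell at 2000 UMIs reported, low-RNA cells had 93.3% of the comparison median at 1000 UMIs and 96.8% at 300 UMIs, the latter chosen after seeing the data. Of 1529 values for 85 named genes, 0 reversed a call, 22 lost one and 153 without a call crossed 0.

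A 2-fold change was seldom recovered in counts simulated with the depth of these summed libraries, 2 mice and a common dispersion. So 0 lower genes does not show that none was lower. The parts of depth and of the number of mice in this limit were not tested.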
